A study of Mus musculus with 10 samples.

Results

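The genes described here are 49 genes of the mitotic spindle, the kinetochore and cytokinesis, out of 18193 genes with a probe set of their own on Affymetrix MOE430_2 arrays. They were chosen by name, and for a gene with several probe sets the one that was brightest on average (log2 scale, all 10 arrays) was used. All 49 were on the array and all 49 were tested in each comparison. RNA came from mouse spleen cells, and 3 groups were compared. The first was splenic natural killer (NK) cells that had been stimulated for 24 h with 100 ng/mL recombinant mouse IL-15 (3 arrays, IL-15 NK). The second was splenic NK cells lysed straight after sorting, here called resting NK (3 arrays). Both NK groups came from wild type C57Bl/6 mice and were flow sorted as NK1.1+CD3- cells to a purity above 99%, per the labels. The third was whole spleen cell suspensions at rest, here called splenocytes, with 4 chips from 2 biological samples. The labels give a strain for the NK cells only and are silent on age, sex and the number of mice per sample. No NK cells kept in culture without IL-15 were analysed here, so the cytokine and 24 h of culture cannot be told apart. NK samples were labelled after 2 cycles of amplification and splenocytes after 1 cycle, so amplification and cell type cannot be told apart in any comparison with splenocytes.

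A cell that divides copies its chromosomes, attaches each pair of sister chromatids to the microtubules of the spindle, and separates them before the cell body is cut apart. The kinetochore is the protein assembly on each centromere that holds the microtubules, and the spindle checkpoint delays anaphase until every kinetochore is attached. Condensin and topoisomerase II compact and untangle the chromosomes, Aurora and polo-like kinases direct the order of events, and anillin, Ect2 and their partners build the contractile ring. Most of these genes are transcribed late in the cell cycle and are low in cells that do not divide. Resting lymphocytes of the spleen are mostly out of the cell cycle, and IL-15 is a growth and survival factor of NK cells.

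Each of the 10 arrays gave 45101 signals, in linear units scaled by the authors to a common trimmed mean. Signals under a floor of 179.85 units (the median over arrays of the 40th percentile) were set to that floor before log2 was taken. The share of signals above the floor was 51.1% to 56.5% on IL-15 NK arrays, 57.8% to 61.7% on resting NK arrays and 61.2% to 62.5% on splenocyte chips. All 13 NK markers on the array were above the floor on every array, and Ncr1, the NK receptor NKp46, was 4.46-fold higher in IL-15 NK cells and 5.86-fold higher in resting NK cells than in splenocytes. The Gapdh control probe sets had a ratio of 3-prime to 5-prime signal of 2.90 to 3.81 on IL-15 NK arrays, 5.88 to 9.54 on resting NK arrays and 1.004 to 1.388 on splenocyte chips. Of 13 B-cell markers, 2 to 5 were above the floor on IL-15 NK arrays, all 13 on resting NK arrays 1 and 2, 5 on resting NK array 3, and all 13 on every splenocyte chip. The number of arrays limits the precision.

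Promoters of genes of this kind are known to carry a CCAAT box, bound by NF-Y, and the cell cycle genes homology region (CHR), bound by the MuvB complexes that hold such genes down in resting cells and raise them before mitosis. RefSeq promoters of 300 bases (250 before to 50 after the start, build GRCm38.p6) were found for 42 of the 49 genes. The letters CCAAT, or ATTGG on the other strand, were in the promoter of 30 of these 42 genes (71.4%), against 41.1% of all 27025 genes with such a promoter. The letters TTTGAA, or TTCAAA on the other strand, which spell the CHR, were in 27 (64.3%), against 20.2% of all genes. Both were in 24 (57.1%), against 7.97% of all genes, and 25 genes (59.5%) had the CHR letters within 50 bases of the start, against 5.72% of all genes. The E2F letters TTTGGCGC or TTTCGCGC, on either strand, were in 1 of the 42 (2.38%), against 0.929% of all genes. A match describes letters in the window and does not show a bound site. The first 4 promoters below belong to the brightest gene of 4 different roles that has such letters, and they show how the motifs lie before and around the start. Capitals mark the CCAAT and CHR letters on either strand.
Bub3, chr7:131560120-131560419, plus strand: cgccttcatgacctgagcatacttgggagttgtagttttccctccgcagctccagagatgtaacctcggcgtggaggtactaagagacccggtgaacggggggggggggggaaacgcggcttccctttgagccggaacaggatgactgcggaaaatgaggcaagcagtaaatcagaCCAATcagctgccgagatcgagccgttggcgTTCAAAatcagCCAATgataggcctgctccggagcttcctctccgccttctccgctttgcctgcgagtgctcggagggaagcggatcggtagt
Smc2, chr4:52438971-52439270, plus strand: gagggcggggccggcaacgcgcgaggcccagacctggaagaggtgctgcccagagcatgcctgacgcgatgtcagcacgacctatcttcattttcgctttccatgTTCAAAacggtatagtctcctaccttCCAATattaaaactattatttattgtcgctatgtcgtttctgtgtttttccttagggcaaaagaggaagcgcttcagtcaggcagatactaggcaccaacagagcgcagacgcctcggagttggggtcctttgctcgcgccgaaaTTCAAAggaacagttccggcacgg
Cdc20, chr4:118437294-118437593, minus strand: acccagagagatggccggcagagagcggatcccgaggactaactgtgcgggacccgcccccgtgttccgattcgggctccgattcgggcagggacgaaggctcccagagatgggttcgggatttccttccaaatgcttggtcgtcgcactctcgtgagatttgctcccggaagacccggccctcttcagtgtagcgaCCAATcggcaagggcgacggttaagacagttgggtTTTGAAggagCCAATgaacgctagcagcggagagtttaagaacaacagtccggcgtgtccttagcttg
Cdca8, chr4:124936868-124937167, minus strand: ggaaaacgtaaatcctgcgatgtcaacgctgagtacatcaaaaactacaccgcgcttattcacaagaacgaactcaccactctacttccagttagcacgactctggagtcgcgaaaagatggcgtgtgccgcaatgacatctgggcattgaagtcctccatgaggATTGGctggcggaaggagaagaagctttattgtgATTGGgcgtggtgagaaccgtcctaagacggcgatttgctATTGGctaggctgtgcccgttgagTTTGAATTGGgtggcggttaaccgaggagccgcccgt
In Cdca8 the CHR letters and a reversed CCAAT box near the end of the window share bases. The next 4 were chosen after values were seen. Plk1 rose in IL-15 NK cells and Racgap1 did not pass the test although both have each motif, Ube2c had the largest deficit against splenocytes, and Melk rose with neither motif in its window.
Plk1, chr7:122159185-122159484, plus strand: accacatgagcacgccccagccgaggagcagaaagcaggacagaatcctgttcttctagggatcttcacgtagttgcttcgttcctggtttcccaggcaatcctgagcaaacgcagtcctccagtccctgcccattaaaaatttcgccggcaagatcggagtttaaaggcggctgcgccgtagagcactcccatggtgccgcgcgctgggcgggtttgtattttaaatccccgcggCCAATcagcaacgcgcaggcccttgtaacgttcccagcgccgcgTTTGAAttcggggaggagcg
Racgap1, chr15:99651607-99651906, minus strand: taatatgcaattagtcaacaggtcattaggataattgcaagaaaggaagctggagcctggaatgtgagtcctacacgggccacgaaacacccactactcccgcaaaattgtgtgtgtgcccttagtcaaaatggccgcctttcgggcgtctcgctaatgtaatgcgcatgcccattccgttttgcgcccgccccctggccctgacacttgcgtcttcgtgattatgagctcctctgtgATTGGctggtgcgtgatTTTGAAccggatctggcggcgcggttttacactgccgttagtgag
Ube2c, chr2:164769679-164769978, plus strand: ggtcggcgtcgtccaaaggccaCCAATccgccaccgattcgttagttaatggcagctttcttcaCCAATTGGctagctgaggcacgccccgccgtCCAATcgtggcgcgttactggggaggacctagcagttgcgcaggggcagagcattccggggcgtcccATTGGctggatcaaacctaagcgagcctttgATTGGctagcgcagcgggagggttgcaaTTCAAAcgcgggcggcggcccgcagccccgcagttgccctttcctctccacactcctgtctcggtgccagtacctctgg
Melk, chr4:44300667-44300966, plus strand: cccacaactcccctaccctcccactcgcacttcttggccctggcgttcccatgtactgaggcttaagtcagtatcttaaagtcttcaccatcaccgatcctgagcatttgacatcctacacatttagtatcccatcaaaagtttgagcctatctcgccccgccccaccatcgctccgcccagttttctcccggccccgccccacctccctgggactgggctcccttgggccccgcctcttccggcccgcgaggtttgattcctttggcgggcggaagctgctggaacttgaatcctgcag
In Ube2c a CCAAT box and a reversed one share bases.

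Nearly all of these genes were higher in IL-15 NK cells than in resting NK cells. In limma at an adjusted p under 0.05, 44 of 49 were higher, 1 was lower and 4 did not pass, where 14.2% of all 11433 genes tested were higher and 12.1% were lower. Of the 49, 43 were higher and at least 2-fold so, which 9.59% of all genes tested were. By their value or its bound, 38 were at least 4-fold higher. The smallest of these 38 rises, that of Cenpp, ranked 259 among all 11433 genes tested. The median log2 difference over the 49 was 2.64, with a range from -0.92 to 4.58, and the median over all genes tested was -0.085. The 44 higher genes also had every IL-15 NK array above every resting NK array, which 20.5% of all genes did. Among the 100 genes with the largest rises on the array (by value or bound), 20 belonged to this group. As in any bulk sample, fewer cells that express a gene and less RNA per cell cannot be told apart.

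**Figure D1:**
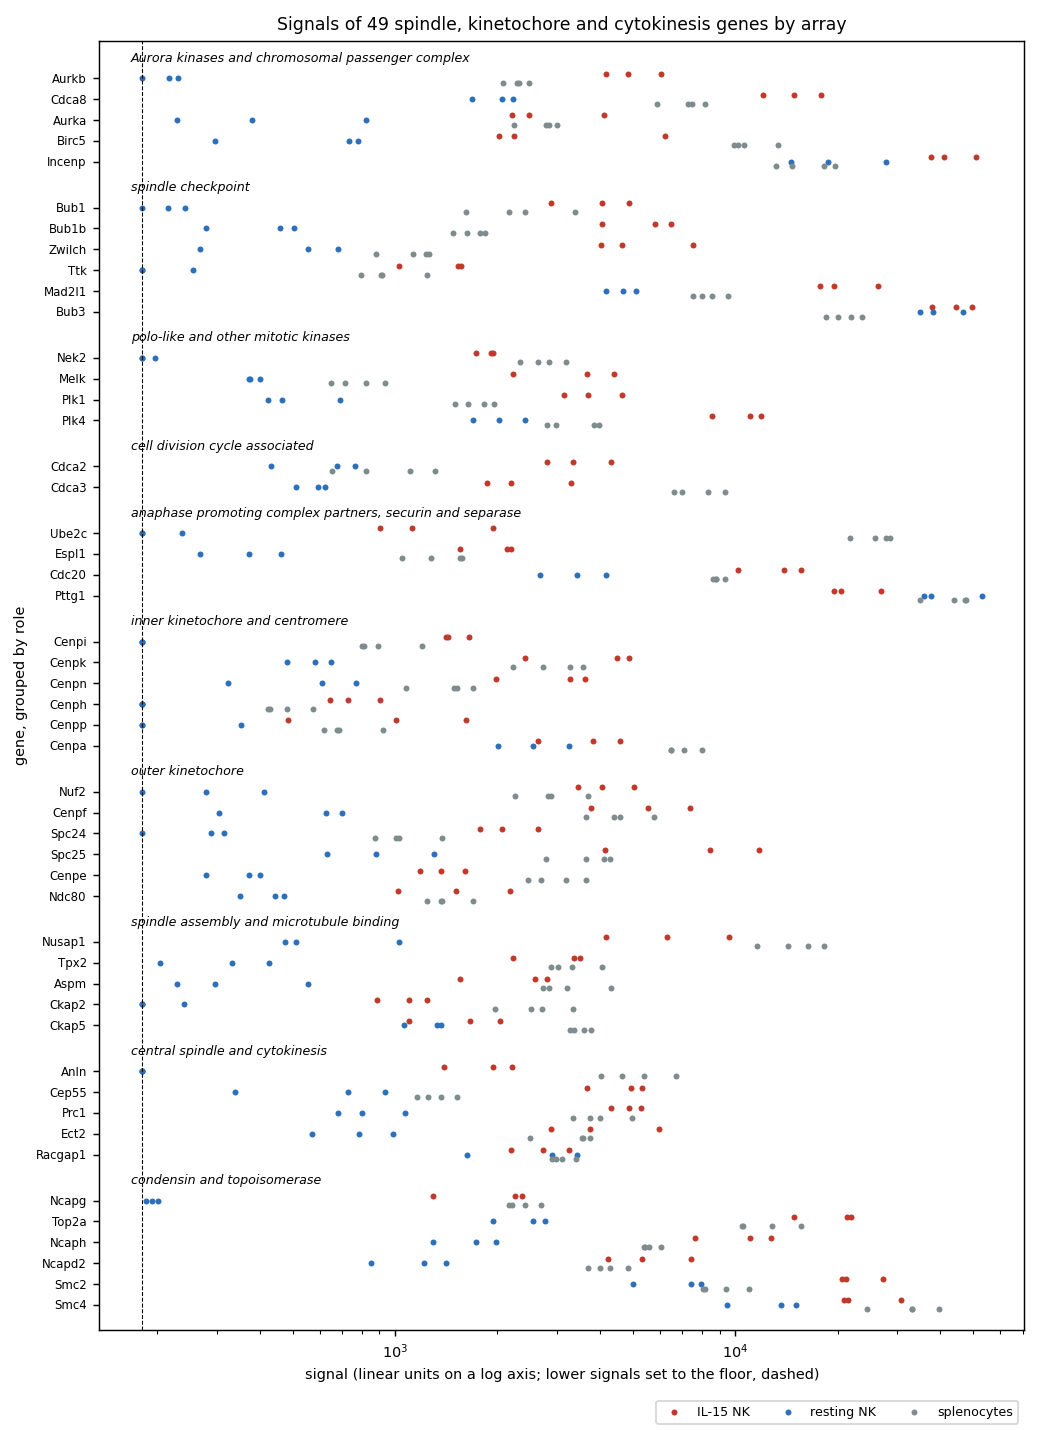
Signal of each of the 49 genes on each array, grouped by role, on a log axis, with IL-15 NK arrays in red, resting NK arrays in blue and splenocyte chips in grey; signals under the floor of 179.85 are drawn at the floor (dashed). For 44 genes every red point lies to the right of every blue point, and Pttg1 is the gene with the reverse order.

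The level in resting NK cells was low for many of the genes. Anln, Cenph and Cenpi were at the floor on all 3 resting NK arrays, 9 genes were above it on 1 or 2 of these arrays, and 37 were above it on all 3. All 49 were above the floor on every IL-15 NK array and every splenocyte chip. Where a resting array was at the floor, the fold is a lower bound and is written as at least. The median signal of the 49 genes was 4494, 4047 and 2792 on the IL-15 NK arrays and 690.4, 482 and 433 on the resting NK arrays. The B-cell markers and the Gapdh ratio given above also differed between these groups, as did markers of myeloid cells. Of 12 macrophage markers, 2 to 3 were above the floor on IL-15 NK arrays, with sums of 1274 to 1892, against 8, 8 and 9 on resting NK arrays 1, 2 and 3, with sums of 6841, 20701 and 29045. Of 8 neutrophil markers, 2 to 4 were above it on IL-15 NK arrays, against 4, 4 and 7 on those resting arrays. The part of these markers and of the Gapdh ratio in the result was not tested. Resting NK array 3 had the fewest B-cell markers above the floor and the most macrophage and neutrophil markers. With that array as the single resting sample, an alternative chosen after seeing the data, 44 genes were higher and 1 lower. The spread in that fit comes from the IL-15 NK arrays alone, and the lone resting array is assumed to vary like them.

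Aurora kinases and the chromosomal passenger complex were all higher in IL-15 NK cells, 5 of 5 genes, with a median log2 difference of 2.77. Aurkb is the kinase of this complex, which corrects wrong attachments at the kinetochore and moves to the midzone in anaphase. Aurkb had signals of 6059, 4829 and 4174 in IL-15 NK cells, against 216, 231 and 100.3 in resting NK cells. The resting signals lay at or near the floor, with 2 of 3 arrays above it, and the groups did not overlap. The log2 difference was at least 4.58 ± 0.27 (SE, limma adjusted p = 1.03e-05), a rise of at least 23.9-fold. That was the largest fitted value among the 49, but several of these values are bounds, whose true order is not fixed. The subunit borealin is encoded by Cdca8, which rose 7.45-fold, by 2.90 ± 0.21 (SE, limma adjusted p = 1.85e-05). Survivin, encoded by Birc5, rose 5.50-fold, by 2.46 ± 0.49 (SE, limma adjusted p = 0.00474), with 1 IL-15 NK array well above the other 2: its signals were 2236, 6217 and 2028 in IL-15 NK cells, against 779, 733 and 296 in resting NK cells. Aurka, the kinase of centrosomes and spindle poles, rose 6.80-fold, by 2.77 ± 0.45 (SE, limma adjusted p = 0.00158), and its resting signals of 380.5, 228 and 823 were the most spread of the 49 (SD 0.93 on the log2 scale). The scaffold Incenp rose 2.18-fold, by 1.13 ± 0.24 (SE, limma adjusted p = 0.007), the smallest rise of the group. The Incenp probe set is one whose name (x_at) marks probes shared with other transcripts, and its other probe sets are described below. The sets used for Aurkb, Cdc20 and Ncaph are also of the x_at kind. A second set of each of those genes rose too, by 3.97, 2.08 and 2.775 on the log2 scale.

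Of 6 spindle checkpoint genes, 5 were higher, and the median log2 difference was 3.11. Bub1 and Bub1b encode the checkpoint kinase BUB1 and its relative BUBR1. Bub1 had signals of 4859.5, 4050.4 and 2872 in IL-15 NK cells, against 216, 44.5 and 241 in resting NK cells. The log2 difference was at least 4.19 ± 0.29 (SE, limma adjusted p = 1.66e-05), a rise of at least 18.2-fold, with 2 of 3 resting arrays above the floor. Bub1b had signals of 6462, 5819 and 4073 in IL-15 NK cells, against 458, 503 and 278 in resting NK cells. Bub1b was above the floor on every resting array and rose 13.4-fold, by 3.74 ± 0.31 (SE, limma adjusted p = 3.87e-05). Zwilch belongs to the complex that brings dynein and the checkpoint proteins to the kinetochore. Zwilch had signals of 7506, 4633 and 4023 in IL-15 NK cells, against 556, 266 and 682 in resting NK cells. It rose 11.1-fold, by 3.48 ± 0.38 (SE, limma adjusted p = 0.000183), and the groups did not overlap. Mad2l1, which encodes the MAD2 protein that inhibits Cdc20, rose 4.49-fold (limma adjusted p = 6.03e-05), and Ttk, the kinase MPS1 that starts checkpoint signalling, rose at least 6.69-fold (limma adjusted p = 0.00019).

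Bub3, the WD-repeat partner of BUB1 and BUBR1 that is also used outside mitosis, was the exception among the checkpoint genes. Bub3 had signals of 49836, 37992 and 44653 in IL-15 NK cells, against 35035, 46708 and 38174 in resting NK cells. The groups overlapped, and the log2 difference was 0.15 with a 95% confidence interval of -0.27 to 0.56 (limma adjusted p = 0.608). The interval leaves out a rise of 2-fold for this probe set. Another Bub3 probe set did rise, as described below.

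Every polo-like or other mitotic kinase gene was higher, 4 of 4, and their median log2 difference was 2.99. Nek2 is a kinase that splits the centrosomes at the entry to mitosis. Nek2 had signals of 1936, 1735 and 1920.2 in IL-15 NK cells, against 196, 131 and 64.9 in resting NK cells. Its resting signals were at the floor on all but 1 array, and the log2 difference was at least 3.33 ± 0.26 (SE, limma adjusted p = 2.98e-05), a rise of at least 10.1-fold. Melk, a kinase of dividing cells and stem-like cells, rose 8.60-fold, by 3.10 ± 0.30 (SE, limma adjusted p = 8.67e-05). Plk1 acts from mitotic entry to cytokinesis. Plk1 had signals of 4655, 3135 and 3704 in IL-15 NK cells, against 690.4, 464 and 422 in resting NK cells. It rose 7.36-fold, by 2.88 ± 0.28 (SE, limma adjusted p = 9.51e-05). Plk4, which starts centriole duplication, rose 5.16-fold, by 2.37 ± 0.21 (SE, limma adjusted p = 6.03e-05), from resting signals that were already well above the floor (1690.0 to 2405).

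Partners of the anaphase promoting complex (APC/C), securin and separase gave the only split role, with 3 of 4 genes higher and 1 lower. Cdc20 activates the APC/C at anaphase. Cdc20 had signals of 13958, 15657 and 10191 in IL-15 NK cells, against 3417, 4164 and 2675 in resting NK cells. It rose 3.88-fold, by 1.96 ± 0.23 (SE, limma adjusted p = 0.000264). Separase, the protease that opens cohesin, is encoded by Espl1, which rose 5.41-fold, by 2.44 ± 0.31 (SE, limma adjusted p = 0.000388). Ube2c, the ubiquitin-conjugating enzyme of the APC/C, was above the floor on 1 of 3 resting NK arrays. Ube2c had signals of 903, 1937 and 1124 in IL-15 NK cells, against 237, 155 and 76.5 in resting NK cells. The rise was at least 6.35-fold, by at least 2.67 ± 0.34 (SE, limma adjusted p = 0.000404). Pttg1 encodes securin, the inhibitor of separase. Pttg1 had signals of 19545, 20433 and 26828 in IL-15 NK cells, against 35892, 53281 and 37655 in resting NK cells. Every IL-15 NK array lay below every resting NK array, which 21.6% of all genes did. The log2 difference was -0.92 ± 0.21 (SE, limma adjusted p = 0.00946), that is 1.89-fold lower in IL-15 NK cells. It was the single gene of the 49 that fell.

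Of 6 inner kinetochore and centromere genes, 5 rose, and the median difference was 2.24 on the log2 scale. These proteins form the layer that sits on centromeric chromatin. Cenpi was at the floor on all resting NK arrays and had 1654, 1409 and 1429 in IL-15 NK cells, a rise of at least 8.30-fold (limma adjusted p = 4.61e-05). Cenph, also at the floor in resting NK cells, had 729, 904 and 645 in IL-15 NK cells and rose at least 4.18-fold (limma adjusted p = 0.000425). Cenpk rose 6.64-fold, Cenpn 5.37-fold and Cenpp at least 4.10-fold, with limma adjusted p of 0.000231, 0.00119 and 0.00842. Cenpa, the histone H3 variant that marks the centromere, did not pass. Cenpa had signals of 3809.6, 4598 and 2628 in IL-15 NK cells, against 2540.2, 3257 and 2014 in resting NK cells. The groups overlapped in a narrow range, and the log2 difference was 0.49 with a 95% confidence interval of -0.11 to 1.08 (limma adjusted p = 0.211), which holds both no change and a rise of 2-fold.

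Outer kinetochore genes were higher in 6 of 6 cases, and their median log2 difference was 3.06. Nuf2, Ndc80, Spc24 and Spc25 encode the 4 subunits of the NDC80 complex, the main microtubule binder of the kinetochore. Nuf2 had signals of 5056, 4047 and 3451 in IL-15 NK cells, against 413, 139.9 and 278 in resting NK cells. The log2 difference was at least 3.91 ± 0.34 (SE, limma adjusted p = 4.92e-05), a rise of at least 15.1-fold. Spc24 rose at least 8.40-fold, by at least 3.07 ± 0.32 (SE, limma adjusted p = 0.000128), and Spc25 8.29-fold, by 3.05 ± 0.39 (SE, limma adjusted p = 0.000416). Ndc80 rose less by its value, 3.58-fold, by 1.84 ± 0.33 (SE, limma adjusted p = 0.00273), and the difference between subunits was not tested. Cenpf, a large kinetochore and nuclear matrix protein, followed the same direction. Cenpf had signals of 7376, 5557 and 3776 in IL-15 NK cells, against 701, 304 and 627 in resting NK cells. It rose 10.5-fold, by 3.39 ± 0.37 (SE, limma adjusted p = 0.00017), on its brightest probe set, which the dimmer sets described below did not share. Cenpe, the kinesin that moves chromosomes to the spindle equator, rose 3.98-fold, by 1.99 ± 0.28 (SE, limma adjusted p = 0.000813).

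Of 5 spindle assembly and microtubule binding genes, 4 were higher, and the median log2 difference was 2.74. Nusap1 bundles microtubules near the chromosomes. Nusap1 had signals of 6317, 9614 and 4169.7 in IL-15 NK cells, against 1029, 476 and 513 in resting NK cells. It rose 10.02-fold, by 3.33 ± 0.37 (SE, limma adjusted p = 0.000214). Tpx2, the activator of Aurora A on the spindle, rose 9.67-fold, by 3.27 ± 0.34 (SE, limma adjusted p = 0.000137). The spindle pole protein gene Aspm rose 6.69-fold and Ckap2 at least 5.39-fold, with limma adjusted p of 0.00069 and 0.000254. Ckap5 encodes a microtubule polymerase used in interphase as well as in mitosis. Ckap5 had signals of 2030.4, 1663 and 1098 in IL-15 NK cells, against 1333, 1064 and 1365 in resting NK cells. IL-15 NK array 3 lay among the resting arrays, and the log2 difference was 0.31 with a 95% confidence interval of -0.33 to 0.95 (limma adjusted p = 0.465).

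Of 5 central spindle and cytokinesis genes, 4 were higher, with a median difference of 2.53 on the log2 scale. Anln encodes anillin, which links actin, myosin and septins in the contractile ring. Anln had signals of 2212, 1935 and 1393 in IL-15 NK cells, against 112, 14.6 and 94.1 in resting NK cells. All resting values lay under the floor, and the log2 difference was at least 3.33 ± 0.28 (SE, limma adjusted p = 4.7e-05), a rise of at least 10.1-fold. Cep55, which recruits the abscission machinery to the midbody, rose 7.48-fold, by 2.90 ± 0.36 (SE, limma adjusted p = 0.000395). Prc1, the bundler of antiparallel microtubules at the midzone, rose 5.76-fold, by 2.53 ± 0.24 (SE, limma adjusted p = 8.6e-05). Ect2 is the exchange factor that activates RhoA at the equator. It rose 5.27-fold, by 2.40 ± 0.32 (SE, limma adjusted p = 0.000564). Racgap1, the centralspindlin subunit that binds Ect2, did not pass. Racgap1 had signals of 2717, 3253 and 2195 in IL-15 NK cells, against 2885, 3435 and 1626 in resting NK cells. The groups overlapped and the log2 difference was 0.09 with a 95% confidence interval of -0.57 to 0.75 (limma adjusted p = 0.859). Resting NK array 3 was the lowest of the 6, and without it the value was -0.23, the other direction.

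Condensin and topoisomerase genes were higher in 6 of 6 cases, and their median log2 difference was 2.46. Condensin I is built from the ATPases Smc2 and Smc4, the kleisin Ncaph and the subunits Ncapd2 and Ncapg. Ncapg had signals of 2249, 2363 and 1294 in IL-15 NK cells, against 192, 201 and 186 in resting NK cells. The resting signals lay just above the floor, and the gene rose 9.86-fold, by 3.30 ± 0.31 (SE, limma adjusted p = 7.45e-05). Ncaph rose 6.23-fold and Ncapd2 4.85-fold, with limma adjusted p of 7.65e-05 and 0.00034. Top2a, topoisomerase II alpha, rose 7.97-fold, by 2.99 ± 0.22 (SE, limma adjusted p = 1.95e-05). Smc2 had signals of 27174, 21181 and 20542 in IL-15 NK cells, against 7430.5, 5014 and 7914 in resting NK cells. Smc2 rose 3.42-fold, by 1.77 ± 0.21 (SE, limma adjusted p = 0.000312). Smc4 had the smallest rise that passed, 1.92-fold, by 0.94 ± 0.23 (SE, limma adjusted p = 0.0128), and without IL-15 NK array 1 it did not pass (log2 difference 0.76, limma adjusted p = 0.0556). No other of the 45 calls between the NK groups was lost when any 1 array was left out. Anln, Cenph and Cenpi were not tested when an IL-15 NK array was left out, since they were then above the floor on too few arrays.

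Both genes named for cell division cycle association rose. Cdca2 encodes Repo-Man, a targeting subunit of protein phosphatase 1 on anaphase chromatin. Cdca2 had signals of 4306, 3340.3 and 2792 in IL-15 NK cells, against 763, 673 and 433 in resting NK cells. It rose 5.65-fold, by 2.50 ± 0.30 (SE, limma adjusted p = 0.000285). Cdca3 encodes a trigger of mitotic entry. Cdca3 had signals of 2191, 3302 and 1858 in IL-15 NK cells, against 625, 594 and 510.1 in resting NK cells. It rose 4.14-fold, by 2.05 ± 0.29 (SE, limma adjusted p = 0.000724).

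The 49 genes had 115 single-gene probe sets, 14 genes with 1 and 35 with several. When every probe set on the array was tested singly, an alternative chosen after seeing the data, 100 of the 115 were tested. Of these 71 were higher, 1 was lower and 28 did not pass, where 12.2% of all 20980 probe sets tested were higher. Of the 51 that had not been chosen to represent a gene, 27 were higher and 0 were lower in limma. For 17 of the 31 genes with another tested probe set, all of the others gave the same call.

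Some genes turned on the choice of probe set. For Bub3, a second probe set had signals of 4356, 2840.3 and 4710.1 in IL-15 NK cells, against 1824, 1159.7 and 1466 in resting NK cells. That is a log2 difference of 1.41 (limma adjusted p = 0.00393), without overlap, while the brightest set did not pass. For Pttg1 the other probe sets had log2 differences of -1.11 (limma adjusted p = 0.0518) and -0.29 (limma adjusted p = 0.482), both negative and neither past the threshold. Incenp had a second bright probe set with signals of 2149.9, 3362 and 1927 in IL-15 NK cells and 904, 1369 and 892 in resting NK cells. Its difference of 1.22 (limma adjusted p = 0.0132) was close to that of the set shared with other transcripts. A pair of dimmer Incenp sets did not pass, with -0.001 and 0.402 (limma adjusted p of 1 and 0.404), and the call was lost with the median of the gene's sets (0.124, limma adjusted p = 0.833). For Cenpf the remaining sets, dim in both NK groups, did not pass either, with 0.004 and 0.628 (limma adjusted p of 0.994 and 0.0702). Its median of sets gave 0.437 (limma adjusted p = 0.21). Tpx2 had a second probe set that rose (1.57, limma adjusted p = 0.00902) and a pair with wide resting values that did not pass (-0.33 and -0.47, limma adjusted p of 0.714 and 0.719). Racgap1 had a second bright probe set with a difference of 0.07 (limma adjusted p = 0.864), near that of the first. For Cenpk, Spc25 and Ncapd2 the brightest set rose and no other tested set passed. The other Cenpk sets had 0.677 and 0.836 (limma adjusted p of 0.114 and 0.0942). Those of Spc25 and Ncapd2 had 0.812 and 0.593 (limma adjusted p of 0.175 and 0.16). With the median of a gene's sets, 5 of the 45 calls between the NK groups were lost, those of Incenp, Cenpf, Tpx2, Cdca3 and Pttg1. The remaining sets of Cdca3 lay near the floor in all 3 groups.

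**Figure D2:**
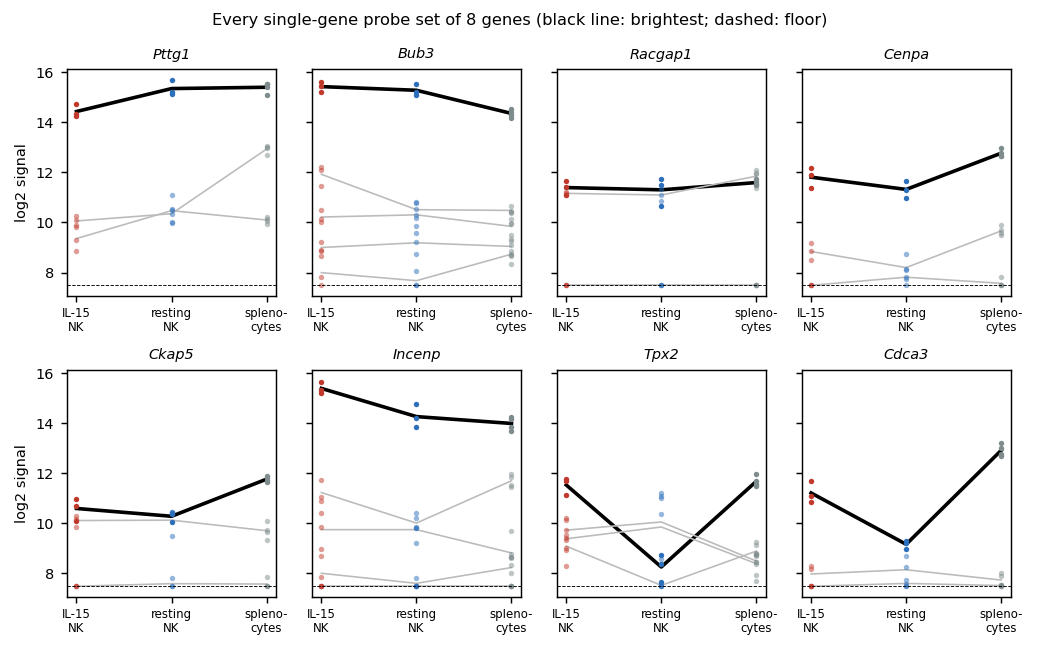
Log2 signal on each array of every single-gene probe set of 8 genes that did not pass, fell or had probe sets that disagreed, by group (IL-15 NK, resting NK, splenocytes). Points are arrays, lines join group means, the black line is the brightest probe set and the dashed line is the floor; Bub3 has a dimmer probe set that rises while its brightest one is level, and the dimmer sets of Tpx2 and Cdca3 do not follow the brightest.

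The arrays of a group differed in a shared way over these genes. IL-15 NK array 3 was the lowest of its group for 40 of the 49 genes, and array 1 was the highest for 29. On average the genes lay 0.34 below their group means on IL-15 NK array 3 on the log2 scale, against 0.18 and 0.15 above it on arrays 1 and 2. Among resting NK arrays, array 1 was the highest for 23 of the 46 genes above the floor somewhere in that group, and array 3 the lowest for 24. Splenocyte chip 4 was the highest for 32 genes and chip 2 the lowest for 27. The median SD of the 49 genes was 0.34 in IL-15 NK cells, where all tested genes had 0.25. It was 0.33 in resting NK cells and 0.23 in splenocytes, against 0.312 and 0.205 over all tested genes.

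Other genes of cell division were set beside the 49, as lists chosen with earlier results known. Among 28 other kinetochore and centromere genes on the array, 27 were tested between the NK groups, 16 were higher in IL-15 NK cells and 0 were lower in limma, with a median log2 difference of 1.27. The largest log2 differences were those of Kntc1 (at least 3.33, limma adjusted p = 0.000378), which works with Zwilch, Sgo1 (2.92, limma adjusted p = 0.000152), the guardian of centromeric cohesin, and Spdl1 (at least 2.47, limma adjusted p = 0.0006), an adaptor of dynein. Spindle and mitotic entry genes gave 24 higher and 1 lower of 32 tested, with a median of 1.83, led by Cdk1 (3.68, limma adjusted p = 2.82e-05), the mitotic kinase, Hmmr (at least 3.68, limma adjusted p = 4.83e-05) and Kif2c (3.45, limma adjusted p = 4.12e-05), a microtubule depolymerase. The lower one was Numa1, which anchors spindle poles and is present in interphase nuclei (-0.71, limma adjusted p = 0.0164).

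In 4 other lists a minority of the genes tested were higher, where 14.2% of all genes tested were higher and 12.1% lower. The share was 20% for cytokinesis and abscission genes, not far from that of all genes. Of 18 APC/C subunits and regulators, 6 were higher and 0 lower in limma, with a median of 0.21. They were led by Fbxo5 (2.14, limma adjusted p = 0.000152), an APC/C inhibitor, Ube2s (1.41, limma adjusted p = 0.0169), which extends ubiquitin chains, and the subunit gene Anapc15 (1.08, limma adjusted p = 0.00936). Of 16 cohesin and other condensin genes, 4 were higher and 0 lower, with a median of 0.11. The leading ones were Esco2 (at least 3.59, limma adjusted p = 2.67e-05), the acetyltransferase of cohesin in S phase, Ncapg2 (3.50, limma adjusted p = 1.81e-05), a condensin II subunit, and Cdca5 (3.15, limma adjusted p = 5.36e-05), sororin. Of 28 centrosome and centriole genes tested, 9 were higher and 0 lower, with a median of 0.50. Their largest differences were Stil (3.34, limma adjusted p = 0.000221), a centriole assembly factor, Haus1 (2.12, limma adjusted p = 0.000298), of augmin, and Tubg1 (1.42, limma adjusted p = 0.00506), gamma-tubulin. Cytokinesis and abscission genes gave 5 higher and 1 lower of 25, with a median of 0.14. Shcbp1 (4.55, limma adjusted p = 7.03e-06) and Cit (at least 2.89, limma adjusted p = 0.000559), citron kinase, were the largest, followed by the formin gene Diaph3 (at least 1.63, limma adjusted p = 0.00931), and Chmp5, of the ESCRT-III group, was lower (-0.62, limma adjusted p = 0.0254).

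DNA replication genes, which act a stage earlier in the cycle, gave 36 higher and 0 lower of 38 tested in limma, with a median of 1.97. The largest were Tk1 (at least 5.13, limma adjusted p = 7.03e-06), thymidine kinase, Cdc6 (4.90, limma adjusted p = 1.11e-05), a helicase loader, and Uhrf1 (3.97, limma adjusted p = 9.82e-06), which carries DNA methylation through replication. Side by side with these, the 49 genes had a median of 2.64, and all genes tested -0.085. The lists differ in how many of their genes are low in resting NK cells, and no test between lists was made.

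**Figure D3:**
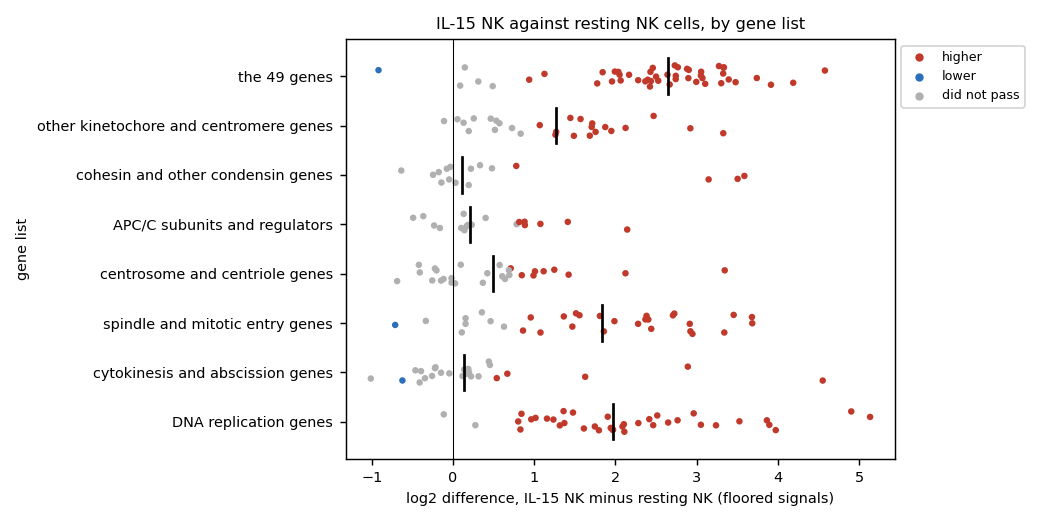
Log2 difference of IL-15 NK minus resting NK cells for each tested gene of the 49 and of 7 other lists. Each point is a gene (red higher, blue lower, grey did not pass at a limma adjusted p under 0.05) and the black bar is the list's median, 2.64 for the 49 genes, 1.97 for DNA replication and 0.11 for cohesin and other condensin genes.

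Resting NK cells had less of nearly all these transcripts than splenocytes, a mixture of mostly resting lymphocytes with other cells, erythroid precursors among them. In limma 42 of 49 genes were lower, 1 was higher and 6 did not pass, where 21.5% of all 12938 genes tested were lower and 17.1% higher. The median log2 difference was -2.03, and that of all genes tested -0.057. For 44 genes every resting NK array lay below every splenocyte chip, which 27% of all genes did, and for 1 gene above it, which 22.7% did. None, 0 of 49, was higher by 2-fold or more in limma, against 10.9% of all genes. Markers of other cell types moved with this comparison. Of 9 erythroid markers on the array, 8 were above the floor on every splenocyte chip, with a median signal of 10284 to 13623, while the median was between the floor and 186 on the resting NK arrays. Their part in the result was not tested, nor was that of amplification. The number of the 49 genes that stayed lower in every fit with 1 array left out was 38, and Plk4, Cenpp, Zwilch and Melk were those that did not.

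The largest fitted deficits in resting NK cells were in Ube2c, Anln, Nusap1 and Birc5. Values of genes at the floor are bounds, Nek2 and Ckap2 among them, so the true order is not fixed. Ube2c had signals of 237, 155 and 76.5 in resting NK cells, against 27829, 21814, 25829 and 28486 in splenocytes, at least 131-fold lower (log2 difference -7.03 ± 0.33 SE, limma adjusted p = 4.1e-06). Anln had 112, 14.6 and 94.1 in resting NK cells, against 5380.3, 4044, 4659 and 6701 in splenocytes, at least 28.4-fold lower (limma adjusted p = 7.4e-06). For Nusap1 the signals were 1029, 476 and 513 in resting NK cells and 16316, 11568, 14299 and 18297 in splenocytes, 23.6-fold lower (limma adjusted p = 9.13e-05). In each case no resting NK array came near a splenocyte chip. By role and on the brightest probe sets, spindle assembly and microtubule binding genes were lower in 5 of 5 cases with a median of -3.42. Outer kinetochore genes were lower in 6 of 6 with -2.58 and inner kinetochore genes in 6 of 6 with -1.56. With the median of a gene's probe sets, 7 of the 43 calls were lost or turned, those of Bub3, Cdca3, Cenpk, Spc25, Tpx2, Aspm and Ckap5. Among spindle assembly genes, Tpx2 then had 0.247, Ckap5 0.39 and Aspm -0.228 (limma adjusted p of 0.727, 0.366 and 0.621). Bub3 was the gene that was higher, 1.90-fold (log2 difference 0.93 ± 0.19 SE, limma adjusted p = 0.0047), in the direction opposite to the other checkpoint genes, of which 5 of 5 were lower. This held for the brightest Bub3 probe set only: a dim one, above the floor on 1 of 3 resting arrays, was lower in resting NK cells (-1.06, limma adjusted p = 0.0375), the other 3 did not pass, and the median of sets gave 0.343 (limma adjusted p = 0.339).

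The genes that did not pass against splenocytes were Incenp, Cdca2, Racgap1, Cep55, Pttg1 and Smc2. Pttg1 had a log2 difference of -0.05 with a 95% confidence interval of -0.56 to 0.46 (limma adjusted p = 0.879). Its probe sets disagreed here, since a dimmer one had signals of 1045, 1441 and 1471 in resting NK cells, against 8208, 6682, 8416 and 8027 in splenocytes. That set was lower in resting NK cells (-2.581, limma adjusted p = 8.41e-05), and the remaining Pttg1 set did not pass (0.372, limma adjusted p = 0.505). The median of the Pttg1 sets was lower (-2.29, limma adjusted p = 0.000228). Racgap1 had -0.29 (-1.02 to 0.45, limma adjusted p = 0.516), Smc2 -0.45 (-0.98 to 0.09, limma adjusted p = 0.168) and Incenp 0.27 (-0.36 to 0.91, limma adjusted p = 0.478). A second probe set of Racgap1, Incenp and Cdca2 was lower in resting NK cells (-0.751, -1.69 and -1.719, limma adjusted p of 0.0205, 0.00291 and 0.00565). Any further tested sets of these genes did not pass. Cep55 missed the threshold with -1.11 (limma adjusted p = 0.0631) although its groups did not overlap.

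After IL-15 the levels lay on both sides of those in splenocytes. In limma 17 of 49 genes were higher in IL-15 NK cells than in splenocytes, 10 were lower and 22 did not pass, where 20.8% of all 12465 genes tested were higher and 23.5% lower. The median log2 difference was 0.50, with a range from -4.37 to 2.22, and the median of all genes tested was -0.098. Of the 49, 14 were higher and at least 2-fold so, which 13.8% of all genes tested were. For 19 genes every IL-15 NK array lay above every splenocyte chip and for 11 below it, which 27.8% and 29.8% of all genes did. The share of genes that were lower was near the share in all genes. Of the 9 erythroid markers on the array, 1 to 4 were above the floor on IL-15 NK arrays and 8 on every splenocyte chip, and their part in the result was not tested. This comparison shares its IL-15 NK arrays with the one against resting NK cells and its splenocyte chips with the one before. By their group means, 31 genes had the order IL-15 NK, splenocytes, resting NK from high to low, 15 had splenocytes first and IL-15 NK in the middle, Bub3 and Incenp had splenocytes last, and Pttg1 had splenocytes first and IL-15 NK last.

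Checkpoint genes and kinases were prominent among those higher in IL-15 NK cells, 4 of 6 and 3 of 4, and none of either role was lower. Zwilch had the largest excess. It had signals of 7506, 4633 and 4023 in IL-15 NK cells, against 1129, 876, 1237 and 1256 in splenocytes, 4.66-fold higher (log2 difference 2.22 ± 0.43 SE, limma adjusted p = 0.00364). Melk had 4405, 3658 and 2219 in IL-15 NK cells, against 821, 648, 715 and 934 in splenocytes, 4.27-fold higher (limma adjusted p = 0.000938). Among the others, Cdca2 was 3.65-fold, Cep55 3.47-fold, Bub1b 3.20-fold and Plk4 3.10-fold higher, with limma adjusted p of 0.00251, 0.00811, 0.00313 and 0.000653. Plk4 and Cdca2 rested on the choice of probe set. The other Plk4 sets had log2 differences of 0.151 and 0.038 (limma adjusted p of 0.769 and 0.953), and for Cdca2 a second set had 0.125 (limma adjusted p = 0.803) while a dimmer one was higher (1.28, limma adjusted p = 0.00495). With the median of sets neither passed, at 0.151 for Plk4 (limma adjusted p = 0.766) and 0.92 for Cdca2 (limma adjusted p = 0.0747). Aurkb was 2.17-fold higher than in splenocytes (limma adjusted p = 0.00603). The other genes higher here were Incenp, Smc2, Mad2l1, Plk1, Bub3, Cdca8, Spc24, Ncaph, Cenpi and Cenph, from 1.59-fold to 2.64-fold. With any 1 array left out, 13 of the 17 remained, and Cenph, Cenpi, Spc24 and Ncaph did not.

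The genes lower in IL-15 NK cells than in splenocytes included 3 of 5 spindle assembly and microtubule binding genes, Nusap1, Ckap2 and Ckap5. On the brightest probe sets none of that role was higher. A dimmer Aspm set, near the floor in splenocytes, was higher (1.559, limma adjusted p = 0.00859). The median of the Aspm sets was higher too (1.334, limma adjusted p = 0.0118). With the median of sets, Nusap1 had -0.627 and Ckap5 0.406, and neither passed (limma adjusted p of 0.0813 and 0.33). Ube2c stood furthest out. It had signals of 903, 1937 and 1124 in IL-15 NK cells, against 27829, 21814, 25829 and 28486 in splenocytes, 20.6-fold lower (log2 difference -4.37 ± 0.33 SE, limma adjusted p = 3.34e-05). Its mean after IL-15 was thus 4.85% of that in splenocytes, while Cdc20, which works with it at the APC/C, was at 147% (limma adjusted p = 0.0882, not past the threshold). Ube2c has 1 single-gene probe set, so no second set could be compared. Ube2s, its partner enzyme at the APC/C and not one of the 49, was lower too (-3.86 on the log2 scale, limma adjusted p = 0.000118). Birc5 had 2236, 6217 and 2028 in IL-15 NK cells, against 10601, 9892, 10169.6 and 13405 in splenocytes, 3.59-fold lower (limma adjusted p = 0.0287). Cdca3 was 3.25-fold, Anln 2.81-fold, Cenpe 2.15-fold, Pttg1 1.96-fold and Cenpa 1.94-fold lower, with limma adjusted p of 0.00141, 0.0025, 0.0105, 0.00795 and 0.0242. Cenpe has a second probe set that gave the opposite call, higher in IL-15 NK cells (1.499, limma adjusted p = 0.0295). With the median of a gene's probe sets, 10 of the 27 calls of this comparison were lost or turned, those of Bub3, Plk4, Incenp, Cdca2, Smc2, Cdca3, Cenpa, Cenpe, Nusap1 and Ckap5. With any 1 array left out, 7 of the 10 remained, and Birc5, Cenpa and Nusap1 did not.

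**Figure D4:**
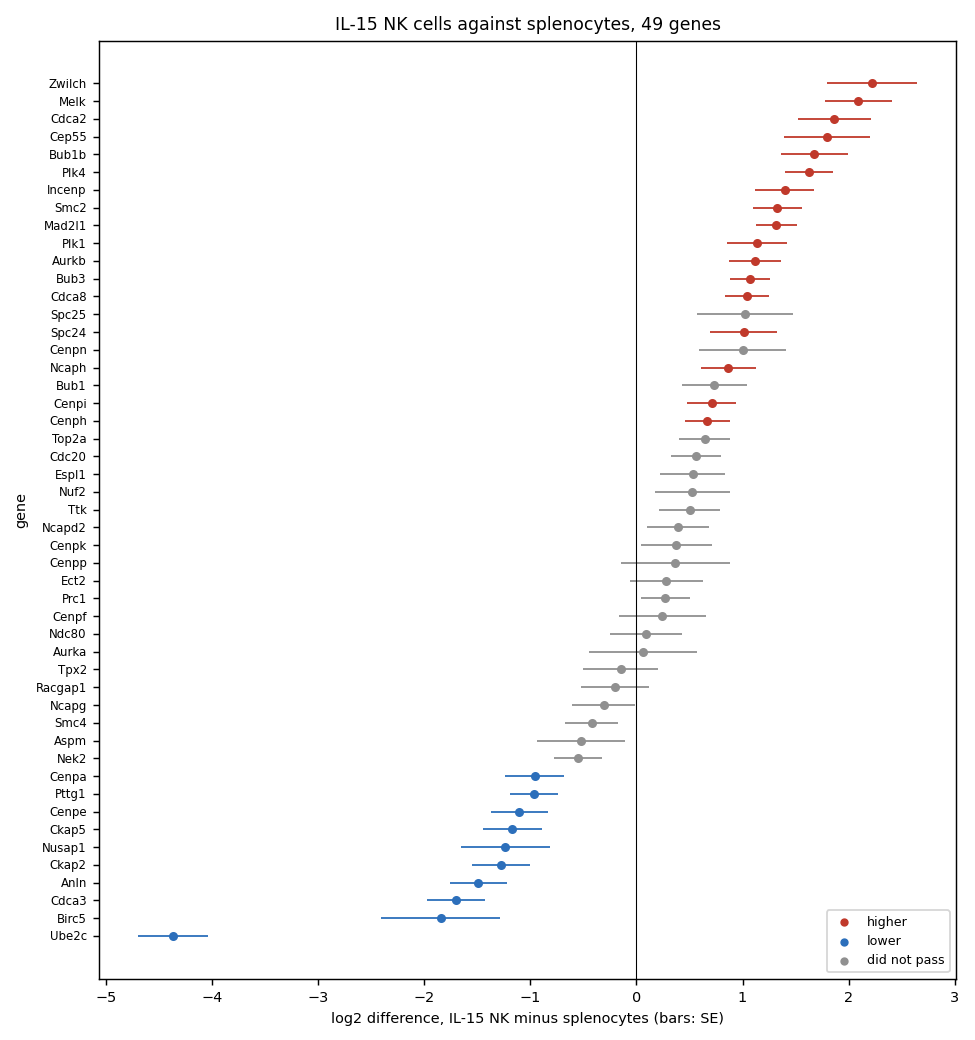
Log2 difference of IL-15 NK cells minus splenocytes for each of the 49 genes, sorted, with bars of 1 standard error, red higher, blue lower and grey did not pass at a limma adjusted p under 0.05. Zwilch is at the top with 2.22, Ube2c stands apart at the bottom with -4.37, and 22 genes around 0 did not pass.

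Within the passenger complex the subunits took different places against splenocytes. Incenp was 2.64-fold higher in IL-15 NK cells. Aurkb and Cdca8 were higher too, with log2 differences of 1.12 ± 0.24 and 1.04 ± 0.21 (SE), and Birc5 was lower, with -1.84 ± 0.56 (SE). Other probe sets of Incenp did not make that call: the second bright one had -0.47 (limma adjusted p = 0.254). In the NDC80 complex, Spc24 was higher by 1.01 ± 0.31 (SE), and Spc25, Nuf2 and Ndc80 did not pass, with 95% confidence intervals of -0.01 to 2.06, -0.29 to 1.35 and -0.68 to 0.86. In condensin I, Smc2 and Ncaph were higher, by 1.33 ± 0.23 and 0.87 ± 0.26 (SE), and Smc4, Ncapd2 and Ncapg did not pass, with intervals of -1.01 to 0.16, -0.28 to 1.07 and -0.996 to 0.38. The other probe sets of Smc4 were lower in IL-15 NK cells (-0.77 and -1.536, limma adjusted p of 0.00607 and 0.0257). The median of its sets was lower too (-0.587, limma adjusted p = 0.0354). The differences between subunits were not tested.

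Set beside the other lists, DNA replication genes were higher in IL-15 NK cells than in splenocytes in 28 of 38 cases, with 0 lower in limma and a median of 1.62. Spindle and mitotic entry genes gave 4 higher and 3 lower of 32, with a median of 0.11. Among these Ccnb2, a mitotic cyclin, was lower (-1.77, limma adjusted p = 0.00953) and Wee1, the kinase that holds Cdk1 inactive, was higher (2.42, limma adjusted p = 0.00197). Other kinetochore and centromere genes gave 7 higher and 3 lower of 28, APC/C genes 2 and 5 of 18, cohesin and other condensin genes 3 and 3 of 16, centrosome genes 10 and 4 of 30, and cytokinesis and abscission genes 10 and 1 of 25. In resting NK cells against splenocytes, 24 of 32 spindle and mitotic entry genes, 13 of 28 other kinetochore genes and 17 of 38 DNA replication genes were lower. In these lists 1, 3 and 4 genes were higher. APC/C genes gave 3 higher and 7 lower of 18, and cohesin and other condensin genes 1 and 5 of 16. Centrosome genes gave 5 higher and 8 lower of 30, and cytokinesis and abscission genes 8 and 3 of 25. Of all genes tested, 17.1% were higher and 21.5% lower in resting NK cells than in splenocytes. In IL-15 NK cells against splenocytes these shares were 20.8% and 23.5%, and several of the lists lay near or under them.

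**Figure D5:**
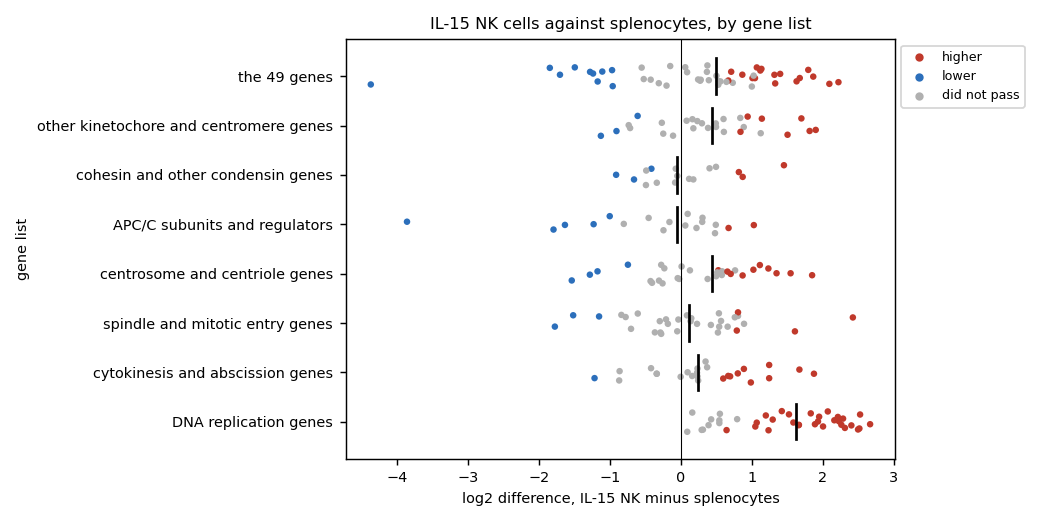
Log2 difference of IL-15 NK cells minus splenocytes for each tested gene of the 49 and of 7 other lists, with points as genes (red higher, blue lower, grey did not pass) and black bars as list medians. The median is 1.62 for DNA replication genes, 0.50 for the 49 and 0.11 for spindle and mitotic entry genes, and the leftmost points are Ube2c (-4.37) and Ube2s (-3.86).

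Returning to the promoters, the calls between the NK groups were counted by motif. Of 24 genes with both the CCAAT and the CHR letters, 20 were higher in IL-15 NK cells and 4 did not pass, with a median log2 difference of 2.48. Of 9 genes with 1 of the motifs, 9 were higher, with a median of 2.90. Of 9 with neither (Mad2l1, Plk4, Birc5, Cenpp, Nuf2, Nusap1, Pttg1, Ncaph and Melk), 8 were higher and Pttg1 was lower, with a median of 2.46. The 4 genes that did not pass, Bub3, Cenpa, Ckap5 and Racgap1, thus all carry both sets of letters in this window. These counts describe the genes and were not tested.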

How the data were processed

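RNA was hybridised to 1-colour Affymetrix MOE430_2 arrays. For each array the authors deposited a linear intensity per probe set. The submitters' processing notes name GCOS 1.4 as the software, and no source used here gives the summary algorithm. The mean after trimming 2% at each end was 1500 on every array, so no further scaling was applied. Such scaling gives relative levels within an array. Genes were named from GEO's platform annotation (34945 probe sets with 1 gene, 932 with several, 9160 with none), and all 49 genes matched RefSeq by Entrez ID. Testing required a signal over the floor on 3 or more arrays of the compared groups. Differences are of mean log2 signals after flooring, and folds are ratios of geometric means.

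Tests were run in R 4.3.3 with the limma package, version 3.58.1. The functions lmFit and eBayes were used, eBayes with its intensity trend. Tests were 2-sided, p-values were adjusted over all genes tested by Benjamini and Hochberg's method, and the threshold was 0.05. The NK groups were compared over their 6 arrays with no block. Comparisons with splenocytes used 1 variance for all 3 groups. Since it is not given which chips share a biological sample, every way of pairing the chips (3 in all) was fitted on pair averages, and the highest p entered the adjustment. For the NK arrays, whether replicates share animals is not stated, and p-values measure the spread between these samples. The labels number the NK arrays of both groups alike, and the design text speaks of pairs. The deviations of same-numbered arrays from their group means correlated at 0.103, 0.281 and 0.066 over 11433 genes. Those of differently numbered arrays correlated at -0.222 to 0.154. These values do not settle which arrays are pairs. The main fit used no block, and the replicate block was run as an alternative. The scripts were tested on simulated data in which 200 genes had been changed.

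The genes and lists were chosen with earlier results of these data known. Per-array values and full statistics are given for the 10 largest rises (by value or bound) between the NK groups and for genes that did not pass there. Genes whose probe sets disagree are described in part, and per-array values are given for only some of them. From other lists the 3 largest differences past the threshold and those against the majority are named, and other genes and values that are named were chosen after they were seen. Alternatives were another floor, quantile normalization, median centring, a pseudocount of 64 without a floor, every gene tested, the median of a gene's probe sets, no intensity trend, the replicate block, splenocyte chips as 4 samples, and each array left out.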

Additional observations from a re-analysis of the deposited data

Results flagged for a closer look

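Splenocyte chip 2 stood apart from the other splenocyte chips for Ect2, the exchange factor of cytokinesis. Its signal was 2491.6, against 3555.3 to 3738.3 on the other 3 chips. On the log2 scale the gap was 0.876 of the whole range, above Dixon's 95% critical value for 4 samples. Of the 49 genes examined in this way, 1 was singled out, and chance does so for about 1 in 20 groups of independent samples. The 4 chips come from 2 biological samples, so they are not independent and that rate is only a guide. Chip 2 was also the lowest splenocyte chip for 27 of the 49 genes.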

How the results depend on the processing

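Between the NK groups, 33 of the 45 calls were the same under all of 15 alternatives (Anln, Cenph and Cenpi had no value when an IL-15 array was out), and so were 31 of 43 for resting NK cells against splenocytes and 11 of 27 for IL-15 NK cells against splenocytes. With the replicate block the counts between the NK groups stayed at 44 higher and 1 lower, with a median difference of 2.64. Resting arrays 1 and 2 correlated best with the IL-15 array of their own number (0.103 and 0.281), and resting array 3 with IL-15 array 1 (0.154). Leaving out 1 array gave 40 to 44 higher and 1 to 1 lower genes between the NK groups (median 2.49 to 2.75; 46 genes tested when an IL-15 array was out), 39 to 42 lower in resting NK cells against splenocytes, and 14 to 20 higher and 7 to 10 lower in IL-15 NK cells against splenocytes. With every gene tested, 39 genes were higher and 0 lower between the NK groups. With the median of a gene's probe sets, 0 were lower there and the median difference was 2.01, and for resting NK cells against splenocytes 0 were higher and the median was -1.71. With the 4 chips as independent samples, IL-15 NK cells against splenocytes gave 22 higher and 11 lower.

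Directions reversed in these cases, and the cause was not tested. With the median of probe sets, Cdca3 had -0.20 between the NK groups. Against splenocytes, resting NK cells had 0.44 for Cdca3, 0.25 for Tpx2 and 0.39 for Ckap5. IL-15 NK cells had 0.24 for Cdca3, 0.20 for Cenpe, -0.84 for Cenpf (limma adjusted p = 0.029), -0.41 for Cenpp, 0.93 for Tpx2, -0.29 for Prc1, 1.33 for Aspm (limma adjusted p = 0.0118), 0.41 for Ckap5, 0.19 for Ncapg and -0.65 for Top2a. With 1 array left out, reversals were found for genes that did not pass, and the ranges over those fits are given. Between the NK groups Racgap1 ranged from -0.228 to 0.311, with -0.048 without IL-15 array 2 and -0.228 without resting array 3. In resting NK cells against splenocytes Racgap1 ranged from -0.512 to 0.028 (without resting array 3), and Pttg1 from -0.231 to 0.054, with 0.054 without resting array 1 and 0.020 without resting array 3. In IL-15 NK cells against splenocytes Aurka ranged from -0.211 (without IL-15 array 1) to 0.242, with -0.027 without chip 2. There Ect2 ranged from -0.008 (without IL-15 array 1) to 0.522, Cenpp from -0.034 (without IL-15 array 2) to 0.834, Ndc80 from -0.180 (without IL-15 array 2) to 0.365, and Tpx2 from -0.268 to 0.059 (without IL-15 array 3). Signals near the floor limit the genes that resting NK arrays did not measure.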
